A study of Homo sapiens with 12 samples.

Results

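Mitosis and spindle checkpoint genes were followed in MDA-MB-231, an established human breast cancer cell line that lacks the oestrogen and progesterone receptors and HER2 amplification. The set holds 40 genes chosen by function, with earlier results of these data known. A gene was measured by the array feature that the platform annotation assigns to it alone, and 39 of the 40 had exactly 1 such feature among the 18417 genes tested. The feature for CENPA, the centromeric histone H3 variant, is shared with other genes and was not used. Each of 4 groups had 3 one-colour Affymetrix arrays: treated-to-resistance (TTR) cells given TRAIL at 100 ng per ml for 2 h, TTR cells without treatment, parental cells given the same TRAIL dose and time, and untreated parental cells. TRAIL is a ligand that triggers apoptosis through death receptors. The labels describe 1 TTR line, do not state whether it is a clone, and do not say that the replicates are separate cultures, so the p-values may rest on technical spread alone. A tag of unstated meaning in the labels differs between parental and TTR arrays, and its part and that of the line cannot be told apart.

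Entry into mitosis is driven by cyclin-dependent kinase CDK1 with cyclins A and B, and the Polo and Aurora kinases then build the spindle. The spindle checkpoint senses kinetochores that are not attached to microtubules and holds back the anaphase-promoting complex, a ubiquitin ligase, until all chromosomes are attached. Many of these genes are transcribed mainly in G2 and M phase, through promoter elements bound by the DREAM and MuvB complexes, NF-Y and FOXM1, and their transcripts are widely read as marks of proliferating cells.

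Levels are deposited log2 values from RMA, each relative to the rest of its array, and the number of arrays limits their precision. The brightness of a feature also depends on its probes, so levels were not compared between genes. Markers of the line were read as values only, since no detection measure was at hand to call a gene present or absent. VIM averaged 11.38 ± 0.14 and CD44 11.05 ± 0.07 in untreated parental cells (SD, n = 3), ERBB2 was at 5.76 ± 0.02, ESR1 at 3.55 ± 0.10, PGR at 2.46 ± 0.09 and CDH1 at 3.12 ± 0.04. The mean level of 4 blood markers lay between 3.48 and 3.75 in TRAIL-treated parental arrays, against 3.42 to 3.58 in untreated ones. That of 6 fibroblast and endothelial markers lay between 3.73 and 3.81 in TRAIL-treated parental arrays, against 3.67 to 3.82 in untreated ones. Of these, 2 of 4 blood markers rose, and 3 of 6 fibroblast and endothelial markers rose and 1 fell. With arrays centred 0 blood markers rose and 1 fell, as with quantile normalization, and 1 of the other 6 rose and 2 fell (1 and 1 with quantile normalization). The pan-leukocyte marker PTPRC averaged 2.44 ± 0.09 with TRAIL and 2.20 ± 0.05 without. Their part in the results was not tested. The TRAIL-treated parental arrays stood apart. They correlated with the other arrays at 0.909 to 0.957 over all genes, whereas the remaining 3 groups correlated among themselves at 0.986 to 0.992. Their medians over all array features, named or not, lay at 4.58 to 4.61, with 4.29 to 4.31 for parental arrays without TRAIL. Over the genes tested these medians were 5.12 to 5.15 with TRAIL and 5.02 to 5.06 without. Each change with TRAIL in parental cells therefore also depends on the scaling of the arrays. That part in the results below was not tested beyond the rescalings given with them.

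TRAIL was followed by lower levels of most mitotic genes in parental cells. Of the 39 members, 31 fell, 6 rose and 2 did not pass the test (limma, Benjamini-Hochberg adjusted p under 0.05 over all genes, n = 3 arrays a group). Among all genes tested 29.9% fell and 28.9% rose, and 58.8% changed in either direction. The members' median change was −0.61 on the log2 scale, beside 0.05 for all genes. With every array centred on its own median over all features these medians became −0.90 and −0.24. With further quantile normalization they were −0.43 and −0.06, so the members' median lay below that of all genes under each scaling. The 6139 genes with the highest mean level had medians near those of the members: −0.58 as deposited, −0.87 centred and −0.40 quantile normalized. A change of at least 2-fold was called for 8 of the genes that fell and 1 of those that rose, beside 13.2% and 4.21% of all genes and 32.1% and 5.98% of the 6139 genes with the highest mean level. In 32 members all 3 TRAIL-treated arrays lay below all 3 untreated ones (31% of all genes), and in 6 they lay above (31.2%). In bulk RNA, fewer cells in mitosis and less RNA of these genes per cell cannot be told apart.

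**Figure D1:**
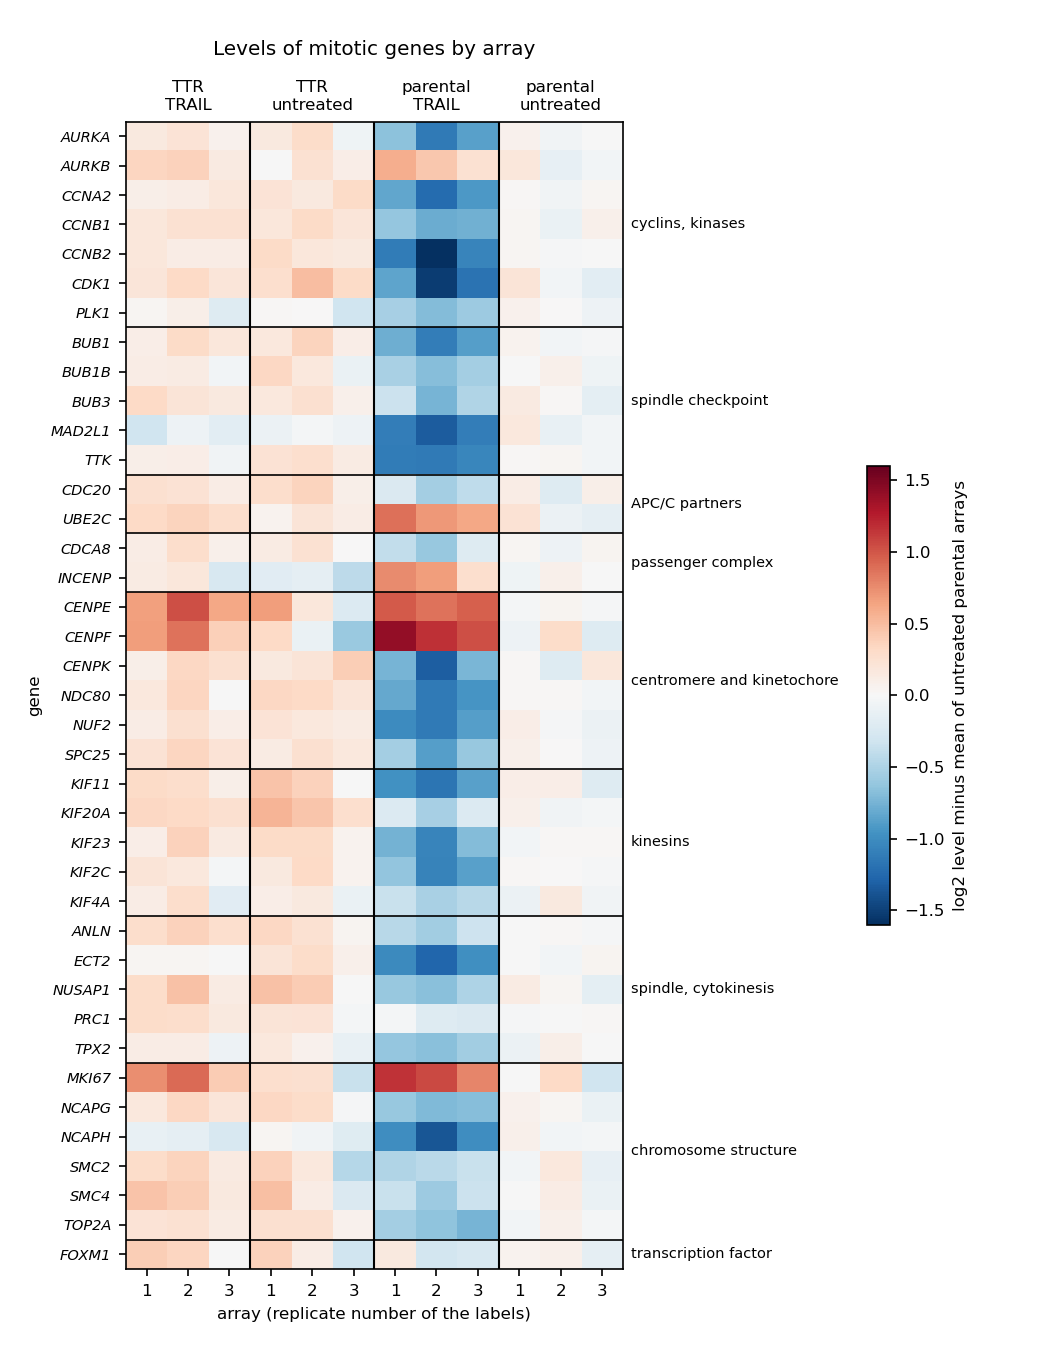
Level of each of the 39 measured mitotic genes (rows, grouped by role) in each of the 12 arrays (columns), as log2 level minus the mean of the 3 untreated parental arrays; blue is lower and red higher. The 3 TRAIL-treated parental columns are blue for most genes, with CENPE, CENPF, MKI67, UBE2C, INCENP and AURKB red.

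The map of levels by array shows the TRAIL-treated parental arrays as a block of low values interrupted by 6 genes, while no such block stands in the TTR columns. CENPE, CENPF, MKI67, UBE2C and AURKB were also above the untreated parental mean in all 3 TRAIL-treated TTR arrays. So were members that fell in parental cells, among them CCNA2, CCNB1, CDK1 and BUB1. Array 2 of TRAIL-treated parental cells was the lowest of its 3 in 31 of the 39 genes, and array 3 was the lowest in 31 genes in each TTR group. Leaving out any 1 array kept the number of genes that fell in parental cells between 28 and 31 and the number that rose at 6.

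Among the cyclins and mitotic kinases, 6 of 7 fell in parental cells and AURKB rose. For this and the later counts by role, 29.9% of all genes fell and 28.9% rose. Of the 6139 genes with the highest mean level 62.4% fell and 18.4% rose. CCNB2, a B-type cyclin that activates CDK1, fell the most of all members. It stood at 8.46, 7.77 and 8.53 in TRAIL-treated parental arrays, against 9.62, 9.56 and 9.58 in untreated ones. The change was −1.33 ± 0.15 (log2 ± SE, adjusted p = 8.55e-07), a 2.52-fold fall, with array 2 the lowest. TTR cells had 9.77, 9.70 and 9.71 with TRAIL, against 9.89, 9.77 and 9.74 without, a difference of −0.08 ± 0.15 with a 95% interval of −0.39 to 0.24. CDK1, the kinase that drives entry into mitosis, had levels of 7.36, 6.68 and 7.02 with TRAIL in parental cells, against 8.41, 8.16 and 8.03 untreated. It fell by 1.18 ± 0.14 (adjusted p = 2.58e-06), more than 1 log2 unit below every untreated value in 2 of the 3 arrays. In TTR cells CDK1 was at 8.39, 8.52 and 8.39 with TRAIL and at 8.47, 8.69 and 8.51 without, and the groups overlapped.

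CCNB1, the other main B-type cyclin, was measured at 9.09, 8.91 and 8.93 in TRAIL-treated parental arrays, against 9.73, 9.60 and 9.78 in untreated ones, and at 9.88, 9.95 and 9.95 in TRAIL-treated TTR arrays, against 9.89, 10.01 and 9.90 in untreated ones. It changed by −0.72 ± 0.09 in parental cells, with no overlap, and by −0.01 ± 0.09 in TTR cells, which did not pass the test. CCNA2, cyclin A2, which acts in S phase and at mitotic entry, had 9.50, 9.10 and 9.41 with TRAIL in parental cells, against 10.35, 10.28 and 10.37 without, and 10.43, 10.45 and 10.51 with TRAIL in TTR cells, against 10.56, 10.49 and 10.64 without. The parental arrays did not overlap, with a change of −0.99 ± 0.10, and the TTR difference of −0.10 ± 0.10 did not pass the test. PLK1, the Polo kinase of centrosome maturation and mitotic exit, stood at 9.55, 9.39 and 9.50 with TRAIL and 10.15, 10.08 and 10.002 without in parental cells. Its TTR levels were 10.11, 10.17 and 9.87 with TRAIL and 10.10, 10.09 and 9.76 without. PLK1 fell by 0.60 ± 0.11 in parental cells, and array 3 was the lowest in both TTR groups.

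AURKA, the Aurora kinase of spindle poles, and AURKB, the Aurora kinase of the chromosomal passenger complex, moved in opposite directions in parental cells. AURKA had 9.01, 8.54 and 8.80 with TRAIL, against 9.74, 9.61 and 9.66 without, a change of −0.89 ± 0.12 with no overlap. AURKB had 9.41, 9.26 and 9.07 with TRAIL, against 9.01, 8.70 and 8.79 without, and rose by 0.42 ± 0.12 (adjusted p = 0.00577). Its call ended with arrays centred on their medians, where the change was 0.13 (adjusted p = 0.385). In TTR cells AURKA stood at 9.82, 9.89 and 9.74 with TRAIL and 9.83, 9.96 and 9.60 without. AURKB there stood at 9.18, 9.20 and 8.97 with TRAIL and 8.82, 9.07 and 8.93 without, and neither gene passed the test.

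All 5 spindle checkpoint genes fell in parental cells, beside 29.9% of all genes and 62.4% of the 6139 genes with the highest mean level. None passed the test in TTR cells, where 5.82% of all genes did. MAD2L1 encodes MAD2, which binds CDC20 to hold back anaphase. It was at 7.69, 7.47 and 7.70 in TRAIL-treated parental arrays, against 8.97, 8.68 and 8.75 in untreated ones, and fell by 1.18 ± 0.11 (adjusted p = 6.00e-08, 2.27-fold). The TTR arrays held 8.48, 8.72 and 8.64 with TRAIL and 8.71, 8.77 and 8.72 without. TTK, the kinase MPS1 that starts checkpoint signalling at kinetochores, had the smallest adjusted p of the set, 1.94e-08. Its parental levels were 6.41, 6.40 and 6.49 with TRAIL, against 7.56, 7.56 and 7.49 without, 2 tight groups whose means lay more than 1 log2 unit apart (−1.10 ± 0.09). Its TTR levels were 7.62, 7.65 and 7.48 with TRAIL, against 7.76, 7.80 and 7.66 without, where all 3 treated arrays lay lower but the difference of −0.16 ± 0.09 did not pass (adjusted p = 0.342).

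BUB1, a checkpoint kinase at the outer kinetochore, had 8.48, 8.15 and 8.39 with TRAIL in parental cells, against 9.32, 9.22 and 9.25 without, a change of −0.92 ± 0.11. In TTR cells it had 9.38, 9.58 and 9.45 with TRAIL, against 9.43, 9.62 and 9.37 without, and the groups overlapped. BUB1B, which encodes BUBR1 of the mitotic checkpoint complex, changed less in parental cells. It stood at 6.94, 6.78 and 6.92 with TRAIL, against 7.45, 7.54 and 7.38 without (−0.58 ± 0.11), and in TTR cells at 7.57, 7.59 and 7.42, against 7.79, 7.62 and 7.35 without. BUB3, which brings BUB1 and BUBR1 to kinetochores, had 9.37, 8.97 and 9.22 with TRAIL in parental cells, against 9.85, 9.72 and 9.55 without. BUB3 fell by 0.52 ± 0.11 there and measured 10.02, 9.92 and 9.86 with TRAIL in TTR cells, against 9.88, 9.97 and 9.79 without. Among the 5, MAD2L1 and TTK changed the most and BUB1B and BUB3 the least, and within each of these pairs the changes lay within 1 SE of each other.

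The partners of the anaphase-promoting complex split. CDC20, its mitotic activator and the target of the checkpoint, stood at 9.93, 9.62 and 9.75 in TRAIL-treated parental arrays, against 10.28, 9.96 and 10.26 in untreated ones. It fell by 0.39 ± 0.11 (adjusted p = 0.00706), a call that ended with quantile normalization. UBE2C, the ubiquitin-conjugating enzyme that works with the complex, rose instead: 9.11, 8.91 and 8.85 with TRAIL, against 8.45, 8.14 and 8.09 without, a change of 0.73 ± 0.11 (adjusted p = 2.27e-05). All 3 treated UBE2C values lay above all untreated ones. TTR arrays had 10.42, 10.39 and 10.29 with TRAIL and 10.45, 10.52 and 10.26 without for CDC20. For UBE2C they had 8.54, 8.58 and 8.51 with TRAIL and 8.28, 8.43 and 8.34 without, with no overlap but a difference of 0.19 ± 0.11 that did not pass the test (adjusted p = 0.359). The passenger complex, which corrects wrong attachments, split in the same way. Its scaffold INCENP had 7.55, 7.46 and 7.06 with TRAIL in parental cells, against 6.72, 6.87 and 6.78 without, and rose by 0.57 ± 0.14 (adjusted p = 0.00209). With arrays centred the INCENP change was 0.28 and was no longer called (adjusted p = 0.101). INCENP in TTR cells was at 6.92, 6.97 and 6.54 with TRAIL and 6.61, 6.65 and 6.37 without. Borealin, encoded by CDCA8, fell by 0.40 ± 0.11, and its call too was lost with quantile normalization.

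At the centromere and kinetochore, the 4 measured structural members fell and both large motor or coiled-coil proteins that join later, CENPE and CENPF, rose. NDC80 and NUF2 form the dimer that grips microtubules. NDC80 stood at 6.42, 6.10 and 6.28 with TRAIL in parental cells, against 7.26, 7.25 and 7.19 without, and at 7.40, 7.57 and 7.22 in TTR cells with TRAIL, against 7.56, 7.55 and 7.43 without. NUF2 stood at 7.28, 7.14 and 7.40 with TRAIL in parental cells, against 8.38, 8.27 and 8.19 without, and at 8.40, 8.54 and 8.39 in TTR cells with TRAIL, against 8.50, 8.45 and 8.41 without. Both fell with no overlap in parental cells, with changes of −0.97 ± 0.11 for NDC80 and −1.01 ± 0.10 for NUF2, and SPC25 of the same complex fell by 0.68 ± 0.10. CENPK, of the constitutive centromere network, had 7.31, 6.72 and 7.31 with TRAIL in parental cells, against 8.07, 7.84 and 8.23 without. CENPK had 8.14, 8.37 and 8.30 with TRAIL in TTR cells, against 8.20, 8.25 and 8.43 without. Its parental change was −0.93 ± 0.15, with array 2 the lowest.

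CENPF, a large kinetochore and nuclear matrix protein, rose the most of all members. It was at 9.07, 8.84 and 8.70 in TRAIL-treated parental arrays, against 7.59, 7.97 and 7.46 in untreated ones, a rise of 1.20 ± 0.20 (adjusted p = 5.63e-05, 2.30-fold). In TTR cells it was at 8.34, 8.54 and 8.05 with TRAIL, against 7.996, 7.56 and 7.08 without, and rose by 0.77 ± 0.20 (adjusted p = 0.0322). Neither line's treated and untreated arrays overlapped. CENPE, the kinesin that carries chromosomes to the metaphase plate, had 6.65, 6.54 and 6.63 with TRAIL in parental cells, against 5.64, 5.73 and 5.66 without, and rose by 0.93 ± 0.17 (adjusted p = 1.37e-04). In TTR cells CENPE had 6.33, 6.70 and 6.30 with TRAIL and 6.34, 5.86 and 5.46 without, with 1 untreated array among the treated ones.

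Each of the 5 other kinesins fell in parental cells. KIF11, the motor that pushes spindle poles apart, stood at 7.56, 7.36 and 7.66 with TRAIL in parental cells, against 8.63, 8.63 and 8.32 without (−1.01 ± 0.13). In TTR cells KIF11 stood at 8.84, 8.81 and 8.62 with TRAIL, against 8.98, 8.90 and 8.53 without. KIF23, a motor of the central spindle, had 8.40, 8.10 and 8.45 with TRAIL in parental cells, against 9.11, 9.17 and 9.17 without (−0.83 ± 0.12), and 9.26, 9.52 and 9.30 with TRAIL in TTR cells, against 9.46, 9.46 and 9.20 without. Both motors had all treated parental arrays below all untreated ones, and overlapping groups in TTR cells. KIF20A, a motor of cytokinesis, moved the least of the kinesins. It had 8.91, 8.60 and 8.91 with TRAIL in parental cells, against 9.22, 9.08 and 9.10 without, and 9.47, 9.45 and 9.39 with TRAIL in TTR cells, against 9.67, 9.57 and 9.40 without. Its parental change was −0.33 ± 0.11 (adjusted p = 0.0148), and the call ended with quantile normalization or without 1 array, untreated parental array 1 or treated parental array 2. KIF2C, a microtubule depolymerase, fell by 0.86 ± 0.12, and KIF4A, a motor of chromosome arms, fell by 0.44 ± 0.12, a call that ended with quantile normalization.

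Of the spindle assembly and cytokinesis genes, 4 of 5 fell in parental cells. TPX2, which activates AURKA on spindle microtubules, had 9.09, 9.04 and 9.15 with TRAIL in parental cells, against 9.61, 9.80 and 9.70 without, a change of −0.61 ± 0.10. TPX2 had 9.82, 9.82 and 9.62 with TRAIL in TTR cells, against 9.87, 9.77 and 9.58 without. ECT2, the exchange factor that turns on RhoA for the contractile ring, fell by 1.09 ± 0.10. Its levels were 8.24, 7.99 and 8.28 with TRAIL in parental cells, against 9.26, 9.21 and 9.31 without, and 9.29, 9.29 and 9.25 with TRAIL in TTR cells, against 9.46, 9.55 and 9.34 without. In both lines the treated ECT2 arrays lay below the untreated ones, but the TTR difference of −0.17 ± 0.10 did not pass the test (adjusted p = 0.348). NUSAP1, a microtubule-bundling protein, fell by 0.59 ± 0.13, and ANLN, anillin of the contractile ring, fell by 0.45 ± 0.10. PRC1, which bundles the central spindle, had a difference of −0.15 ± 0.10 in parental cells that did not pass (adjusted p = 0.198).

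Condensin and other chromosome genes fell in 5 of 6 cases. NCAPH, the kleisin subunit of condensin I, stood at 7.74, 7.36 and 7.73 with TRAIL in parental cells, against 8.82, 8.68 and 8.69 without, and fell by 1.12 ± 0.11. NCAPH stood at 8.61, 8.59 and 8.47 with TRAIL in TTR cells, against 8.76, 8.67 and 8.53 without. SMC4, an ATPase core subunit of both condensins, had 7.62, 7.40 and 7.63 with TRAIL in parental cells, against 7.97, 8.09 and 7.88 without, and 8.44, 8.37 and 8.14 with TRAIL in TTR cells, against 8.46, 8.10 and 7.75 without. SMC4 fell by 0.43 ± 0.15 in parental cells and its partner SMC2 fell by 0.42 ± 0.16. Both calls ended with quantile normalization, and without untreated parental array 2 or treated parental array 2. In all, the SMC2 call (adjusted p = 0.0309) ended in 6 of 22 alternatives and the SMC4 call in 3. NCAPG, another condensin I subunit, fell by 0.66 ± 0.11. TOP2A, the topoisomerase that untangles sister DNA, had 9.74, 9.65 and 9.54 with TRAIL in parental cells, against 10.24, 10.38 and 10.25 without (−0.65 ± 0.10). TOP2A in TTR cells had 10.51, 10.54 and 10.43 with TRAIL and 10.54, 10.54 and 10.36 without.

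MKI67, the proliferation antigen Ki-67 that coats mitotic chromosomes, rose. Its levels were 8.98, 8.88 and 8.60 in TRAIL-treated parental arrays, against 7.81, 8.14 and 7.51 in untreated ones, a rise of 1.00 ± 0.19 (adjusted p = 2.05e-04). TTR arrays had 8.56, 8.73 and 8.23 with TRAIL, against 8.09, 8.08 and 7.46 without, a difference of 0.63 ± 0.19 that did not pass (adjusted p = 0.0573). All treated MKI67 values exceeded all untreated ones in both lines. FOXM1, the transcription factor of the late cell cycle, had 8.64, 8.20 and 8.23 with TRAIL in parental cells, against 8.54, 8.57 and 8.35 without, and 8.88, 8.83 and 8.48 with TRAIL in TTR cells, against 8.85, 8.61 and 8.17 without. FOXM1 groups overlapped in both lines, with differences of −0.13 ± 0.16 in parental and 0.19 ± 0.16 in TTR cells.

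**Figure D2:**
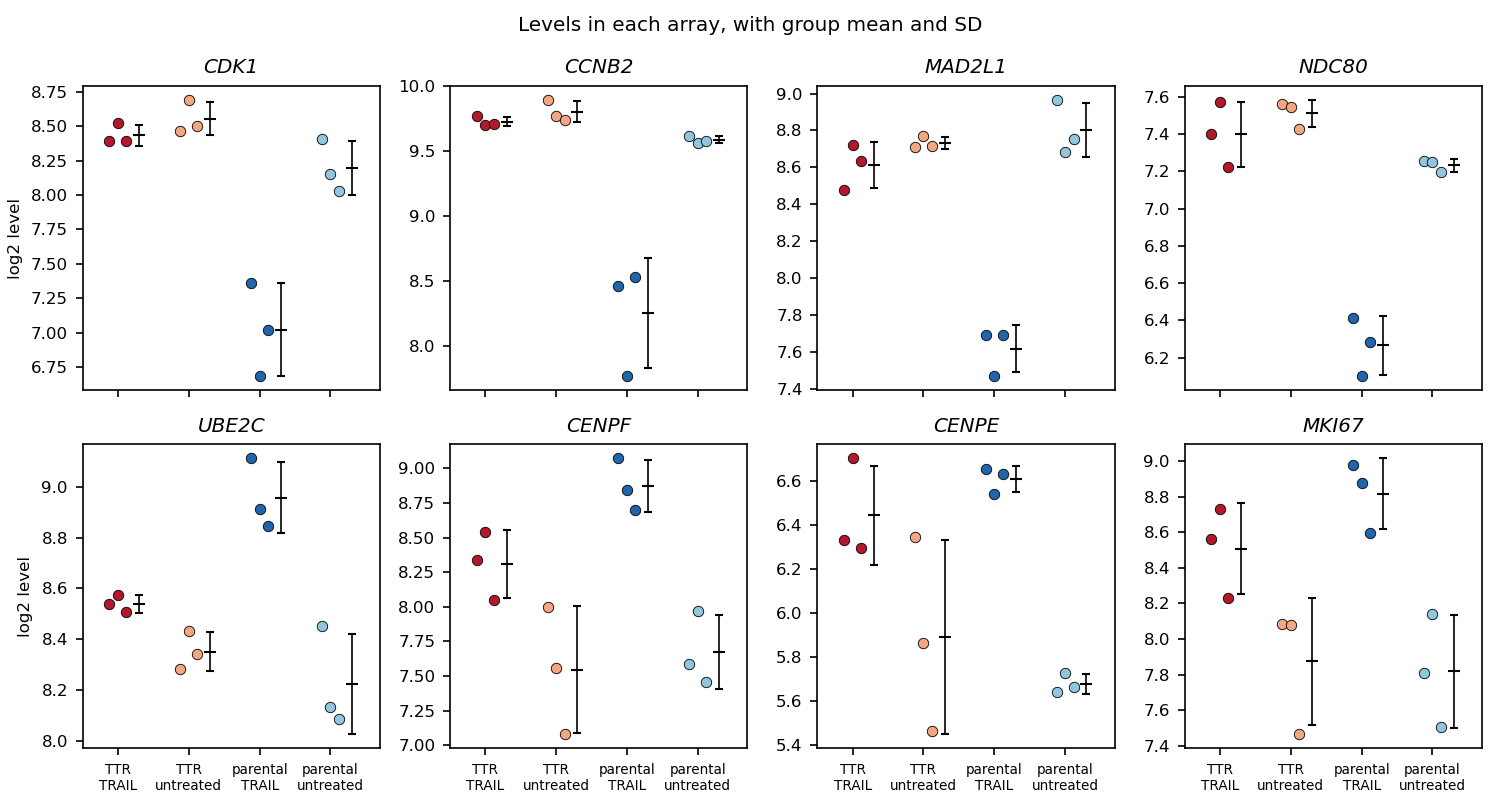
Log2 level of 8 mitotic genes in each array (points) with the mean and SD of the 3 arrays of a group (bars), in TTR cells with and without TRAIL and parental cells with and without TRAIL. CDK1, CCNB2, MAD2L1 and NDC80 are low only in the TRAIL-treated parental arrays, whereas UBE2C, CENPF, CENPE and MKI67 are higher there than in untreated parental arrays.

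The plot of 8 genes by group sets these opposite patterns side by side: CCNB2 and CDK1 as the pair with the deepest parental falls among the cyclins and kinases, and CENPF, CENPE and MKI67 as the members with the largest rises. To show what members that moved in opposite directions carry near their start sites, the sequence from 170 bases before to 30 after the annotated start is given for 4 of them, from RefSeq (GRCh38.p14), 5′ to 3′ on the strand of the gene. Capitals mark CCAAT or its reverse complement, the letters of an NF-Y site, and TTTGAA or TTCGAA or their reverse complements, the letters of a cell cycle homology region. In MKI67 the second TTTGAA overlaps a reverse CCAAT. The windows are chr15:59104976-59105175 (plus strand) for CCNB2, chr10:60778161-60778360 (plus) for CDK1, chr1:214603025-214603224 (plus) for CENPF and chr10:128126394-128126593 (minus) for MKI67.
CCNB2: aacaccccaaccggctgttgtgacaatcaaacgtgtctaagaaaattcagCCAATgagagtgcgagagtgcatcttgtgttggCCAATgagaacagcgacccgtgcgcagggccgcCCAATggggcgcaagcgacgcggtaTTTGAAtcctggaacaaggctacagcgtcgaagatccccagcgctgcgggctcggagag
CDK1: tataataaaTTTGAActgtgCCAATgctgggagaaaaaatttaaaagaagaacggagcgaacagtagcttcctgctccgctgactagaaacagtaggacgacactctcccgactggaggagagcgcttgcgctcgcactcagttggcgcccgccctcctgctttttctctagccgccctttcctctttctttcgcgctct
CENPF: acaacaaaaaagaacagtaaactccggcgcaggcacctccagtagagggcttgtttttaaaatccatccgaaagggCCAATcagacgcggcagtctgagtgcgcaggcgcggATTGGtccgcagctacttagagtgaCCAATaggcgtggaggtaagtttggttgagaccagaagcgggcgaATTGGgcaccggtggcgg
MKI67: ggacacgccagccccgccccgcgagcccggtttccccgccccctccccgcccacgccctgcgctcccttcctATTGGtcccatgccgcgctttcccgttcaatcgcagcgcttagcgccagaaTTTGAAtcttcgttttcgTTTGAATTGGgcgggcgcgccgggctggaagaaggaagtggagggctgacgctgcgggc

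CCNB2, which fell, and MKI67, which rose, both held each kind of letters in these windows, and CENPF held 4 CCAAT matches. A homology region match of CENPF began 41 bases after its start, past the end of the printed stretch and inside the longer windows counted next. Over the windows from 250 bases before to 50 after the start, 33 of the 39 measured members were matched by gene identifier in RefSeq. AURKA, BUB3, FOXM1, TPX2, TTK and UBE2C had no entry among the windows used. TTTGAA or TTCGAA on either strand occurred in 25 of the 33 (75.8%), beside 13.3% of 14239 windows of genes tested. CCAAT on either strand occurred in 24 (72.7%), beside 36.3%. The E2F-type letters TTTCCCG or TTTGGCG or TTTCGCG or TTTGCCG on either strand occurred in 5 (15.2%), beside 11.1%. In 5153 windows of the genes with the highest mean level the 3 shares were 11.4%, 38.2% and 14.7%. The members' E2F-type share was thus near that of genes of high level. With the homology region letters, 21 genes fell and 3 rose in TRAIL-treated parental cells, with a median change of −0.60. Without them, 6 fell and 2 rose, with a median of −0.79. With CCAAT 19 fell and 4 rose, and without it 8 fell and 1 rose. A match is a description of letters, not of a bound site.

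Among the 6139 genes with the highest mean level, 62.4% fell and 18.4% rose with TRAIL in parental cells, with a median of −0.58. Of the members, 24 lay among the 1841 genes of the highest level and had a median change of −0.63, beside −0.76 and 70.2% falling for all 1841. The next 1843 genes held 11 members with a median of −0.58, beside −0.66. The 1841 genes below those held 3 members with a median of −0.68, beside −0.40. Read against genes of like signal, the members' share of falls, 79.5%, exceeded the background by less than it exceeded that of all genes. CENPE changed by 0.93, where the 1842 genes of like signal had a median of −0.16.

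**Figure D3:**
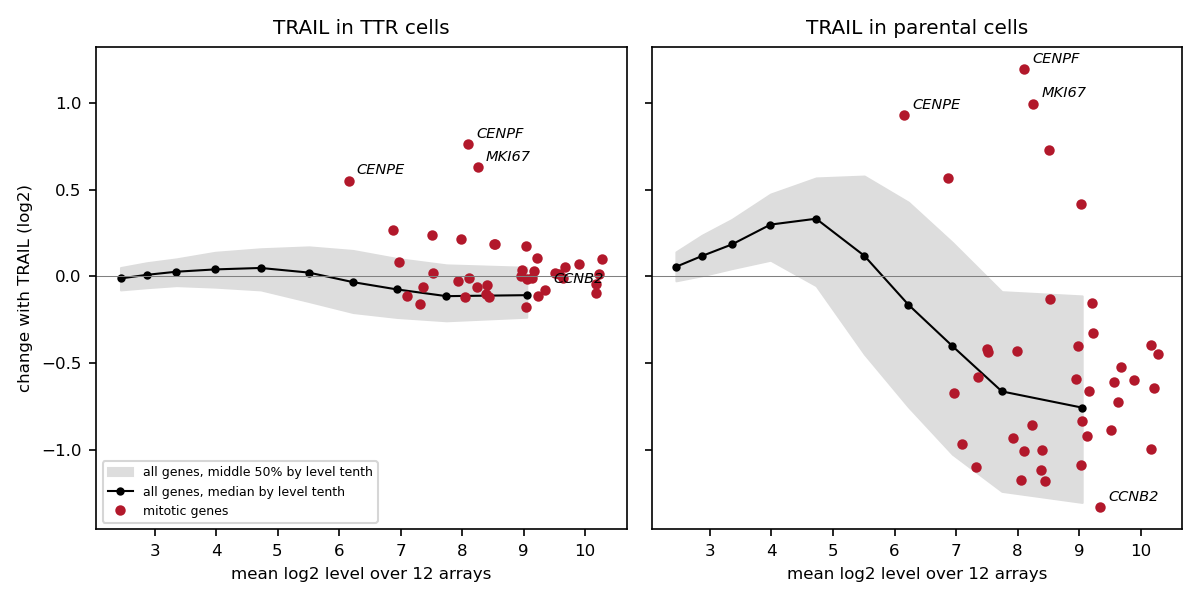
Change with TRAIL (log2, vertical) against mean log2 level over the 12 arrays (horizontal) in TTR cells (left) and parental cells (right). Red points are the mitotic genes, the black line the median of all genes in each of 10 groups by level and the grey band their middle 50%; in parental cells 32 of the 39 red points lie within the band, 6 above it and 1 below.

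The plot of change against level shows the median of all genes sinking with level in parental cells, and the members around it. Of the 39, 32 lay within the middle 50% of the genes in their own group by level. CCNB2 lay below it, and AURKB, CENPE, CENPF, INCENP, MKI67 and UBE2C lay above it. In TTR cells 26 members lay within that band and 13 above. The members that rose in parental cells had a median genomic length of 29462 bp, beside 33887 bp for those that fell.

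In TTR cells the same dose and time of TRAIL was followed by a called change in 1 mitotic gene. CENPF rose, 0 members fell, and 38 did not pass the test (limma), where 3.27% of all genes rose, 2.55% fell and 5.82% passed in either direction. Of the 6139 genes of highest level 5.51% rose and 4.94% fell. Treated and untreated arrays did not overlap in 3 members that lay above (11.2% of all genes) and 2 that lay below (16.3%). At an unadjusted p under 0.05 there were 3 members, CENPF, MKI67 and CENPE, all higher, beside 8.61% of all genes higher and 12% lower. The members' median change was 0.01, beside −0.01 for all genes, and −0.09 beside −0.11 with arrays centred. Same-numbered TTR arrays deviated together, and when the replicate number entered the fit as a block the 3 members that rose were CENPF (adjusted p = 0.00459), MKI67 (0.00178) and CENPE (0.0415). The block also raised the calls among all genes, to 4.4% higher and 4.11% lower. Without the block, the CENPF call ended when array 2 or 3 of untreated TTR cells, or array 1 or 2 of treated ones, was left out, with adjusted p between 0.095 and 0.151. With the TRAIL-treated parental arrays out of the fit, 1 member rose and 0 fell, as with them, beside 3.98% and 5.3% of all genes.

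The 31 genes that fell in parental cells had TTR changes between −0.17 (ECT2) and 0.24, with a median of −0.01. Their 95% intervals in TTR cells reached from −0.43 to 0.57 at the widest, and for 30 of the 31 the parental change lay below the lower bound of the gene's TTR interval. The 31 were picked by that parental change, and the TTR interval leaves out its error, so this count is a description and no test. The 6 genes that rose in parental cells all had a TTR change above 0: 0.77 for CENPF, 0.63 for MKI67, 0.55 for CENPE, 0.27 for INCENP, 0.19 for UBE2C and 0.17 for AURKB. Only CENPF passed the test in TTR cells. Of all 18417 genes 8940 had a TTR change above 0, and that count was not made among all genes that rose in parental cells. The 6 were picked by their parental rise, so this too is a description and no test. The parental and TTR comparisons share no array.

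The difference between the lines in their change with TRAIL was tested directly as TTR change minus parental change. It was called for 30 of 39 members, above 0 for 29 and below 0 for 1 (limma, adjusted p under 0.05), beside 22.9% above 0 and 14.3% below among all genes, 37.2% in either direction. Among the 6139 genes of highest level these shares were 53.5% and 10.7%. In all 30 the TTR change was nearer 0 than the parental one, as it was in 38 of the 39 members, called or not. The same count over all genes was not made. TRAIL changed 58.8% of all genes in parental cells and 5.82% in TTR cells, so the count is not read as particular to the set. The member called below 0 was UBE2C (−0.54 ± 0.15, adjusted p = 0.011), which changed by 0.19 in TTR cells and 0.73 in parental cells, and that call ended with arrays centred (adjusted p = 0.0983). The smallest p-values were those of TTK (0.94 ± 0.13, adjusted p = 2.29e-05), NUF2 (1.00 ± 0.14, 3.06e-05), MAD2L1 (1.06 ± 0.15, 3.52e-05), ECT2 (0.92 ± 0.14, 7.79e-05) and NCAPH (1.02 ± 0.16, 8.61e-05). The largest difference was that of CCNB2, 1.26 ± 0.21. For CENPF, CENPE, MKI67, INCENP and AURKB, which rose in parental cells, the differences of −0.43, −0.38, −0.37, −0.30 and −0.24 did not pass the test. KIF20A, CDC20, PRC1 and FOXM1 did not pass it either.

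**Figure D4:**
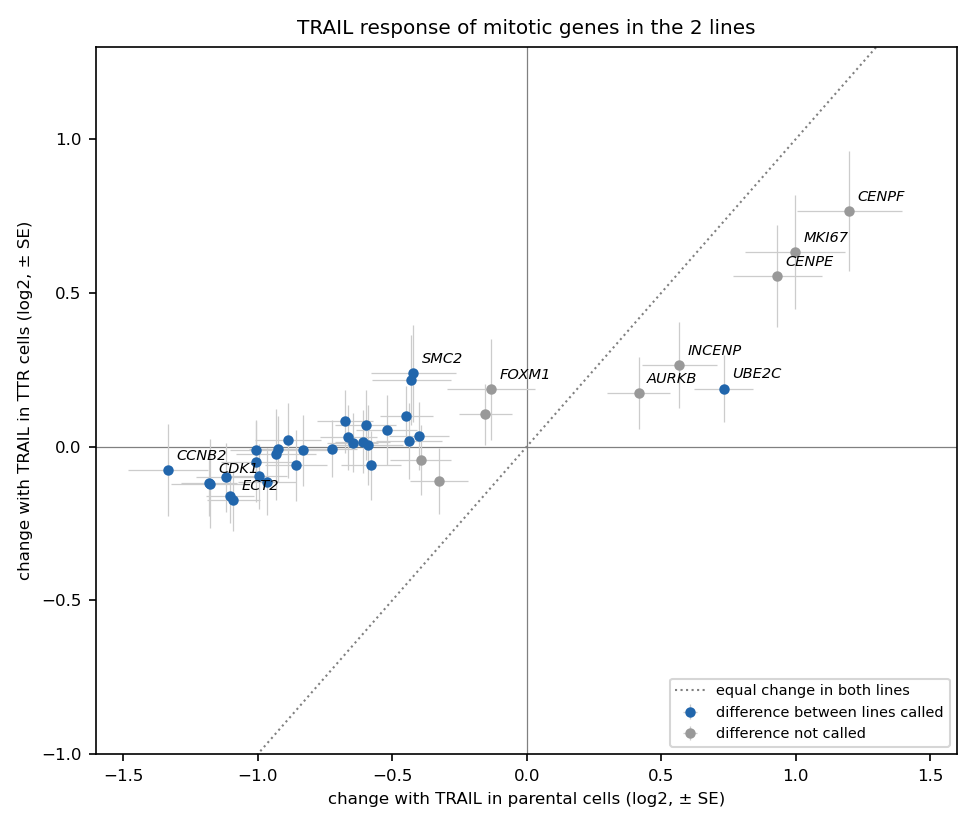
Change with TRAIL in TTR cells (vertical, log2 ± SE) against the change in parental cells (horizontal, log2 ± SE) for the 39 mitotic genes; the dotted line marks equal change in both lines. Blue points are the 30 genes called for the difference between the lines; most lie far left of 0 and near 0 on the vertical axis, while CENPF, CENPE and MKI67 lie above 0 on both.

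The plot of both lines shows the members as a flat band, with parental changes spread over more than 2 log2 units and TTR changes within less than 1. The 6 genes that rose in parental cells lie right of 0 and above it.

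Without TRAIL, 1 member passed the test between the lines. KIF20A was higher in TTR cells than in parental cells, by 0.41 ± 0.11 (limma adjusted p = 0.0258), 0 members were lower, and 38 did not pass, where 3.64% of all genes were higher, 3.47% lower and 7.11% called in either direction (5.51% and 6.06% of the 6139 of highest level). At an unadjusted p under 0.05 there were 9 members, all higher in TTR cells, beside 9.39% of all genes higher and 9.47% lower. The median difference was 0.18, beside −0.01 for all genes. Of the 39 differences 34 were above 0, beside 8588 of all 18417 genes and 3041 of the 6139 of highest level. In 14 members (35.9%) all 3 TTR arrays lay above all 3 parental arrays, beside 12% of all genes, and in 1 they lay below, beside 12.5%. The KIF20A call ended without untreated parental array 2 or 3 or without TTR array 1 or 2. CDK1 (0.36, adjusted p = 0.175) and NDC80 (0.28, 0.153) were among those that passed only without adjustment.

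With TRAIL present in both lines, TTR cells had higher levels of 32 members and lower levels of 3, beside 28% and 26.4% of all genes, 54.4% in all (limma), and 59.4% and 17.2% of the 6139 genes of highest level. This comparison uses the same TRAIL-treated parental arrays as the first. The differences were largest for CCNB2 (1.47 ± 0.15, adjusted p = 3.77e-07), CDK1 (1.42 ± 0.14), KIF11 (1.23 ± 0.13), NUF2 (1.17 ± 0.10) and CENPK (1.16 ± 0.15), whose TTR and parental arrays with TRAIL did not overlap. CENPF (−0.56 ± 0.20, adjusted p = 0.0232), INCENP (−0.55 ± 0.14, 0.00306) and UBE2C (−0.42 ± 0.11, 0.00414) were lower in TTR cells. All 3 of these calls ended with arrays centred (adjusted p = 0.146, 0.0508 and 0.137). CENPF also lost its call without TRAIL-treated parental array 1 (adjusted p = 0.0907) or TRAIL-treated TTR array 3 (0.106). MKI67, CENPE, AURKB and FOXM1 did not pass.

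The wider mitotic machinery, 117 measured genes in 6 lists outside the set, was lower in parental cells with TRAIL in 73 cases and higher in 16, with a median of −0.58. Among all genes 29.9% fell and 28.9% rose, and among the 6139 of highest level 62.4% and 18.4%. Of the 17 genes of the anaphase-promoting complex and its regulators, 13 fell and 3 rose. The subunits ANAPC5 (−1.81) and ANAPC7 (−1.87) fell, whereas the cullin-like subunit ANAPC2 (0.80) and the G1 activator FZR1 (0.61) rose. Of 32 further kinetochore, centromere and checkpoint genes 21 fell and 4 rose, with ZW10 (−1.50) and ZWILCH (−1.73) of the complex that recruits dynein falling. CENPT (1.84), an inner kinetochore protein, and MAD1L1 (0.44), the MAD2 partner, rose. Condensin and cohesin genes fell in 10 of 16 cases, with the cohesin subunits STAG2 (−1.56) and RAD21 (−1.61), and 1 rose, separase ESPL1 (0.58).

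Among 22 further spindle, motor and cytokinesis genes 11 fell and 2 rose. RACGAP1 (−1.29), the partner of KIF23 in the central spindle, and the kinase PBK (−1.55) fell, while the kinesin KIF18B (0.91) and citron kinase CIT (0.69) rose. The E2F, MuvB and retinoblastoma family regulators fell in 12 of 16 cases, among them TFDP1 (−1.66), the dimer partner of E2F, and RB1 (−1.99), and the MuvB subunit LIN37 rose (0.43). The 14 genes of mitotic entry and its brakes were the most mixed, with 6 falling and 5 rising. ENSA (−1.31) and ARPP19 (−1.82), the paired inhibitors of the phosphatase PP2A-B55, fell. CKS2 (0.51), a CDK-binding subunit, and WEE1 (0.45), the kinase that restrains CDK1, rose. In TTR cells 3 of the 117 genes passed the test, all lower with TRAIL, beside 2.55% of all genes. For the change in TTR minus that in parental cells 64 were called above 0 and 6 below, beside 22.9% and 14.3% of all genes and 53.5% and 10.7% of the 6139 of highest level.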

How the data were processed

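Total RNA of 12 MDA-MB-231 samples was hybridised to one-colour Affymetrix arrays. The authors deposited log2 values, and per the submitters' processing notes RMA and Affymetrix Power Tools were used. Versions, settings and genome build were not given in the sources used here. RMA sets each array relative to the others, so a change in total RNA per cell is not seen, and levels near the bottom can be background.

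Of 33252 features, 19460 name 1 gene, 1754 several and 12038 none in the platform annotation. The 18417 genes were each taken from the feature of highest mean. Values were fitted with limma 3.58.1 in R 4.3.3, with 1 mean per group, all 12 arrays and no block. P-values were two-sided and adjusted by Benjamini-Hochberg over 18417 genes, and the script was tested on simulated data. An exact permutation test of 3 against 3 cannot go below 0.1 and was not used. Same-numbered arrays carry a shared code in the labels that is not explained. Deviations of same-numbered TTR arrays correlated over genes at 0.32, 0.15 and 0.40, so the number was taken as pairing TTR arrays, and the blocked result is printed there. Same-numbered parental arrays with and without TRAIL correlated at 0.11, 0.06 and 0.06, above the pairs of unlike number but weakly, and were not taken as paired. Each comparison between the lines had a same-numbered pair below 0 (−0.03 without TRAIL, −0.01 with it). The block was fitted over all 12 arrays, so parental arrays also entered it.

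Values in every array are given for 24 members picked by role, the 5 largest called rises and falls of each pairwise comparison and the 5 smallest p-values of the difference between lines. From each other list the 2 called genes of smallest p in each direction are named. The members and lists were chosen with earlier results of these data known. Alternatives were 2 rescalings, a filter on low levels, other feature and model choices and leaving out each array. Promoter letters came from RefSeq (GRCh38.p14), by gene identifier for the members and by symbol for all genes.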

Additional observations from a re-analysis of the deposited data

Results flagged for a closer look

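The change with TRAIL differed between the lines, by the direct test of TTR change minus parental change (limma, adjusted p under 0.05), in 30 mitotic genes. Among the cyclins and kinases the difference was 1.26 for CCNB2, 1.06 for CDK1, 0.91 for AURKA, 0.90 for CCNA2, 0.72 for CCNB1 and 0.67 for PLK1 on the log2 scale. The checkpoint genes differed by 1.06 (MAD2L1), 0.94 (TTK), 0.92 (BUB1), 0.57 (BUB3) and 0.52 (BUB1B). At the kinetochore the values were 1.00 for NUF2, 0.91 for CENPK, 0.85 for NDC80 and 0.76 for SPC25. The motors gave 0.96 (KIF11), 0.82 (KIF23), 0.80 (KIF2C) and 0.46 (KIF4A). For ECT2, TPX2, NUSAP1 and ANLN, which act on the spindle and in cytokinesis, the values were 0.92, 0.63, 0.60 and 0.55. The chromosome genes gave 1.02 (NCAPH), 0.69 (NCAPG), 0.66 (SMC2), 0.66 (TOP2A) and 0.65 (SMC4), and the passenger complex member CDCA8 gave 0.44. UBE2C alone differed in the other direction, at −0.54. Some of these calls ended under part of the 20 alternatives run for each: KIF4A in 12, CDCA8 in 11, SMC2 in 8, SMC4 in 5, NUSAP1 in 3, and BUB1B and UBE2C in 1 each. Among all genes, 37.2% were called for this difference.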

How the results depend on the processing

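No called member changed direction under any alternative run. The members' median for TRAIL in TTR cells, 0.01, was −0.09 with arrays centred, −0.01 with array weights and between −0.06 and 0.06 with 1 array left out. Robust limma-trend or averaging the features of each gene changed no call of a member. With TRAIL in parental cells, 29 of the 37 called members kept their call in every alternative, as did 31 of 35 between the lines with TRAIL and 23 of 30 for the difference between the lines, but 0 of 1 for TRAIL in TTR cells and 0 of 1 between untreated lines. Centring each array on its median moved the members' median to −0.90 for TRAIL in parental cells, 1.05 between the lines with TRAIL and 0.84 for the difference, and left 0 members lower in either of the last 2. Quantile normalization gave −0.43, 0.68 and 0.48, with 5 and 2 members lower. The centring also moved the share of higher calls among all genes, to 21.3% against 49.1% for TRAIL in parental cells (37.9% with quantile normalization), 18.7% against 56.2% in TTR cells, 74.1% against 51.6% between the lines with TRAIL and 80.9% against 61.6% for the difference. All features fitted moved it to 77.5% in TTR cells. Requiring a 2-fold change left 1 higher and 8 lower for TRAIL in parental cells, 0 higher in TTR cells, 0 higher between untreated lines, 12 higher and 0 lower with TRAIL, and 4 above and 0 below 0 for the difference. Of all 18417 genes, 776 and 2439, 124, 67, 1924 and 506, and 1657 and 442 passed in the same order. Of the 6139 genes of highest level, 1581 were higher and 251 lower between the lines with TRAIL. For the difference 1434 of the 6139 were above 0 and 227 below.

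For TRAIL in TTR cells, where 1 member rose, 2 rose with quantile normalization, 3 without the lowest genes by mean, 3 with array weights, and 0 with all features fitted (CENPF adjusted p = 0.0681) or only the groups compared (0.0534). In the same order 2.44%, 5.18%, 7.72%, 3.63% and 3.43% of all genes or features fitted rose, beside 3.27% in the main fit. With the replicate number as a block 3 rose, also with only the groups compared, and leaving out 1 array gave 0 to 3. Of all genes 4.4% and 6.09% rose with these blocks, and 1.59% to 4.1% with 1 array left out. The block changed no other count of members by over 1.5 times, and same-numbered parental arrays with and without TRAIL correlated at only 0.11, 0.06 and 0.06. Between untreated lines, 0 were higher with all features fitted and 3 with array weights, and leaving out 1 array gave 0 to 1. The shares higher were 1.49% of all features, 6.42% of all genes with array weights and 2.19% to 4.45% with 1 array left out. For the difference, leaving out 1 array left 1 to 3 below 0, beside 11.5% to 14.8% of all genes. CCAAT letters on the strand of the gene alone occurred in 14 of 33 members (42.4%), beside 21% of the 14239 windows of genes tested. The causes of these shifts were not tested. Limits are 3 arrays a group, replicates of unstated origin, no detection measure for background, and TRAIL-treated parental arrays that stand apart.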
